A study of Rattus norvegicus with 3 samples.

Results

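The 3 ligands of the transforming growth factor beta (TGF-beta) pathway (Tgfb1, Tgfb2, Tgfb3), their 3 receptors (Tgfbr1, Tgfbr2, Tgfbr3) and the latent TGF-beta binding protein Ltbp4 were followed across the cell types of the thymus of the 8-week-old Lewis rat, an inbred strain. These 7 genes were chosen by name, from 34034 features counted in each library, and their levels were read per cell label of the deposited annotation. A single-cell library was made from CD45-negative stromal cells, enriched on magnetic beads and sorted after digestion with Liberase TH and DNase I. The other was made from thymocytes after digestion with collagenase D and DNase I. Neither library carried a treatment or a genotype beyond the strain, and the number of animals behind each is not given in the sources used here. With 1 library of each kind, no test between groups was possible: every interval below covers the counting error of unique molecular identifiers (UMIs) only, at 95%.

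TGF-beta ligands are secreted as latent dimers, held by their own propeptide and tied to the matrix through latent TGF-beta binding proteins, which bind fibrillin. Once released, a ligand binds the type II receptor Tgfbr2, which recruits and phosphorylates the type I receptor Tgfbr1. The type III receptor Tgfbr3 (betaglycan) lacks kinase activity and presents ligand, Tgfb2 above all, to Tgfbr2. Receptor activity reaches the nucleus through Smad2, Smad3 and Smad4. In the thymus the pathway is known for its part in regulatory T cell, natural killer T cell and CD8 T cell development and in limiting the growth of the medullary epithelium.

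Labels were given to 13226 of 16160 stromal barcodes, with 131624350 UMIs and a median of 9087.5 a cell. In the thymocyte library 8546 of 8574 barcodes had one, with 64440495 UMIs and a median of 3994. Levels are UMIs of a gene per 1000000 UMIs of all cells of a label (CPM). They were compared within a library, among 24 stromal and 21 thymocyte labels of at least 20 cells, and never between genes. The libraries shared 38 barcodes. Marker genes matched most labels: the 5 endothelial genes summed to 3577 CPM in capEC and the 7 thymocyte genes to 9789 CPM in DP. TMC4 was counted with the fibroblasts although its fibroblast genes stood at a median of only 16.8% of the pooled fibroblast level (13.9 to 63.9%). The next lowest fibroblast label was TMC3 at 61.3%, and the Thymocyte label of the stromal library was at 37.3%. The label aaTEC2 (29 cells) went against its name, with fibroblast genes at a median of 72.2% of their level in the fibroblast labels and 4 epithelial genes summing to 589 CPM, against 4908 CPM in aaTEC1. It was nevertheless kept in the epithelial class. MEC and nmSC are abbreviations that the annotation does not spell out, and they were put in no class. The mesothelial genes Msln and Upk3b summed to 4500 CPM in MEC. The mast cell gene Cpa3 was also found in MEC, at 634 CPM on 334 UMIs, and at 0.731 CPM or less in the other stromal labels. The 3 Schwann cell genes were detected in nmSC, beside fibroblast genes at a median of 59.7% of the fibroblast level. The endothelial gene Pecam1 was also found in nmSC, at 212 CPM on 60 UMIs, against 996 to 1224 CPM in the endothelial labels. The epithelial gene Epcam stood there at 113 CPM.

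Tgfb1, the ligand most tied to immune regulation, was highest in the 3 endothelial labels and nmSC, followed by blood cells, and lower in fibroblasts. It stood at 89.0 CPM in capEC (80.5 to 98.2, 396 UMIs), 74.6 CPM in vEC and 73.7 CPM in aEC. The label nmSC, at 74.1 CPM on 21 UMIs (45.8 to 113), could not be separated from vEC and aEC. Myeloid cells were at 64.4 CPM, cells labelled Thymocyte at 53.6 CPM and B cells at 49.0 CPM. The fibroblast labels were graded, from 6.19 CPM in capFb through 13.5 in TMC1, 17.6 in TMC2 and 24.6 in TMC3 to 30.6 CPM in TMC4, and these 5 intervals did not overlap except for those of TMC3 and TMC4, which met between 27.5 and 27.8 CPM. The larger epithelial labels (early Pr, cTEC, mTEC1, mTEC-prol and mTEC2) lay between 19.9 and 26.3 CPM. The smaller ones were between 2.33 CPM in mimetic(goblet) and 11.0 CPM in aaTEC2, on only 2 to 6 UMIs each. The lead of capEC over vEC was 1.19-fold (1.02 to 1.39). Against nmSC the order turned when cells rather than UMIs were weighted equally (0.91-fold), after thinning each cell to 1000 UMIs (0.94-fold) and without cells rich in fibroblast genes (0.61-fold, with nmSC at 155 CPM on the 16 Tgfb1 UMIs left).

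Tgfb2, the ligand that depends most on Tgfbr3 for binding, was found in fibroblasts and, at its highest, in the small endothelial label aEC. It reached 330 CPM in the 90 aEC cells (291 to 372, 264 UMIs), 2.38-fold (2.09 to 2.70) above capFb at 139 CPM. TMC2 followed at 114 CPM, TMC1 at 109 CPM and TMC3 at 94.8 CPM, while TMC4 stood apart from the other fibroblasts at 43.8 CPM. Within the endothelium aEC was followed by capEC at 60.9 CPM and vEC at 25.4 CPM, with no overlap of the intervals. At least 1 Tgfb2 UMI was seen in 52.2% of aEC cells (exact Clopper-Pearson interval 41.4 to 62.9%, median 7342.5 UMIs a cell) and in 5.54% of Myeloid cells (median 9510 UMIs). After thinning these shares were 22.2% and 0.795%. Of the 48 Tgfb2 UMIs in the 505 Myeloid cells, 19 remained in the 472 cells in which fibroblast genes made up at most 1% of UMIs. Without cells rich in fibroblast genes, aEC was at 345 CPM.

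The ligand Tgfb3 was highest in fibroblasts and in a small epithelial label. TMC1 stood at 43.3 CPM (39.9 to 46.9), capFb at 41.0 CPM, TMC2 at 29.1 CPM, TMC3 at 18.4 CPM and TMC4 at 7.44 CPM. The epithelial label aaTEC1 reached 42.8 CPM on 27 UMIs in 44 cells (28.2 to 62.3) and could not be separated from TMC1 (ratio 1.01, 0.69 to 1.49). Fibroblast genes in aaTEC1 were at a median of 0.519% of the fibroblast level, Tgfb2 at 3.17 CPM and Ltbp4 at 7.93 CPM. Endothelial labels were between 4.42 and 8.74 CPM and Myeloid cells at 2.98 CPM. Among the labels classed as fibroblasts, Tgfb2 and Tgfb3 were thus lowest in TMC4, where Tgfb1 was highest. TMC4 was also the one with the lowest median of fibroblast genes.

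Ltbp4, a binding protein of the latent complex and of elastic fibres, was highest in the fibroblast labels in which Tgfb2 and Tgfb3 were lowest. TMC4 stood at 497 CPM (484 to 510, 5738 UMIs) and TMC3 at 432 CPM (420 to 445), a ratio of 1.15 (1.11 to 1.19). MEC followed at 368 CPM, TMC1 at 240 CPM, the mural label vSMC/PC at 201 CPM, TMC2 at 168 CPM and capFb at 100 CPM (95.2 to 105). A UMI of Ltbp4 was present in 94.3% of TMC4 cells (median 8717 UMIs a cell), against 13.7% of Myeloid cells. Endothelial labels lay between 129 and 177 CPM, epithelial labels other than aaTEC2 between 5.76 and 62.6 CPM.

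The type I receptor Tgfbr1 was the most even of the members. Its stromal levels ran from 28.5 CPM in MEC to 96.5 CPM in TMC4, and none of the neighbours in the order differed beyond counting error. TMC4 (90.9 to 102) nevertheless lay above the other fibroblasts, at 59.2 CPM in TMC2, 56.3 CPM in TMC3, 52.7 CPM in TMC1 and 39.7 CPM in capFb. The epithelial labels mimetic(tuft), mTEC2 and mTEC-prol stood at 92.5, 78.8 and 77.5 CPM.

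The type II receptor Tgfbr2 was far more graded. The label nmSC was highest at 663 CPM (572 to 765, 188 UMIs in 39 cells), 1.39-fold (1.19 to 1.61) above capEC at 478 CPM. Without fibroblast-rich cells that lead was 2.39-fold, over aEC, on 24 remaining nmSC cells at 1251 CPM. Next came aEC at 466 CPM and MEC at 345 CPM, and then the fibroblasts from 309 CPM in TMC1 to 194 CPM in TMC4. The endothelial label vEC, at 234 CPM, had less than its endothelial neighbours. In the epithelium, early Pr and cTEC stood at 138 and 139 CPM and mTEC1 at 89.7 CPM, whereas mTEC2 was at 26.3 CPM (16.7 to 39.4), mTEC-prol at 24.9 CPM and mimetic(muscle) at 7.68 CPM. Myeloid cells were at 31.5 CPM. In mTEC2 and mTEC-prol, low Tgfbr2 thus stood beside Tgfbr1 at or above its level in most stromal labels.

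The co-receptor Tgfbr3 was highest in fibroblasts. TMC1 stood at 518 CPM (506 to 530), TMC2 at 476 CPM, capFb at 439 CPM, TMC3 at 386 CPM and TMC4 at 251 CPM. Of the endothelial labels vEC was highest at 411 CPM (391 to 433), against 262 CPM in aEC and 255 CPM in capEC, whereas it was the lowest of them for Tgfbr2. The labels aEC and capEC could not be separated for either gene. The epithelial labels again ranged from 177 CPM in cTEC and 164 CPM in early Pr through 88.1 CPM in mTEC1 to 51.4 CPM in mTEC2 and 22.7 CPM in mTEC-prol. Of the 23 neighbouring pairs in the order of stromal levels, 8 differed beyond counting error for Tgfbr2 and 8 for Tgfbr3, 7 for Ltbp4, 6 for Tgfb2, 3 for Tgfb1, 1 for Tgfb3 and 0 for Tgfbr1.

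**Figure D1:**
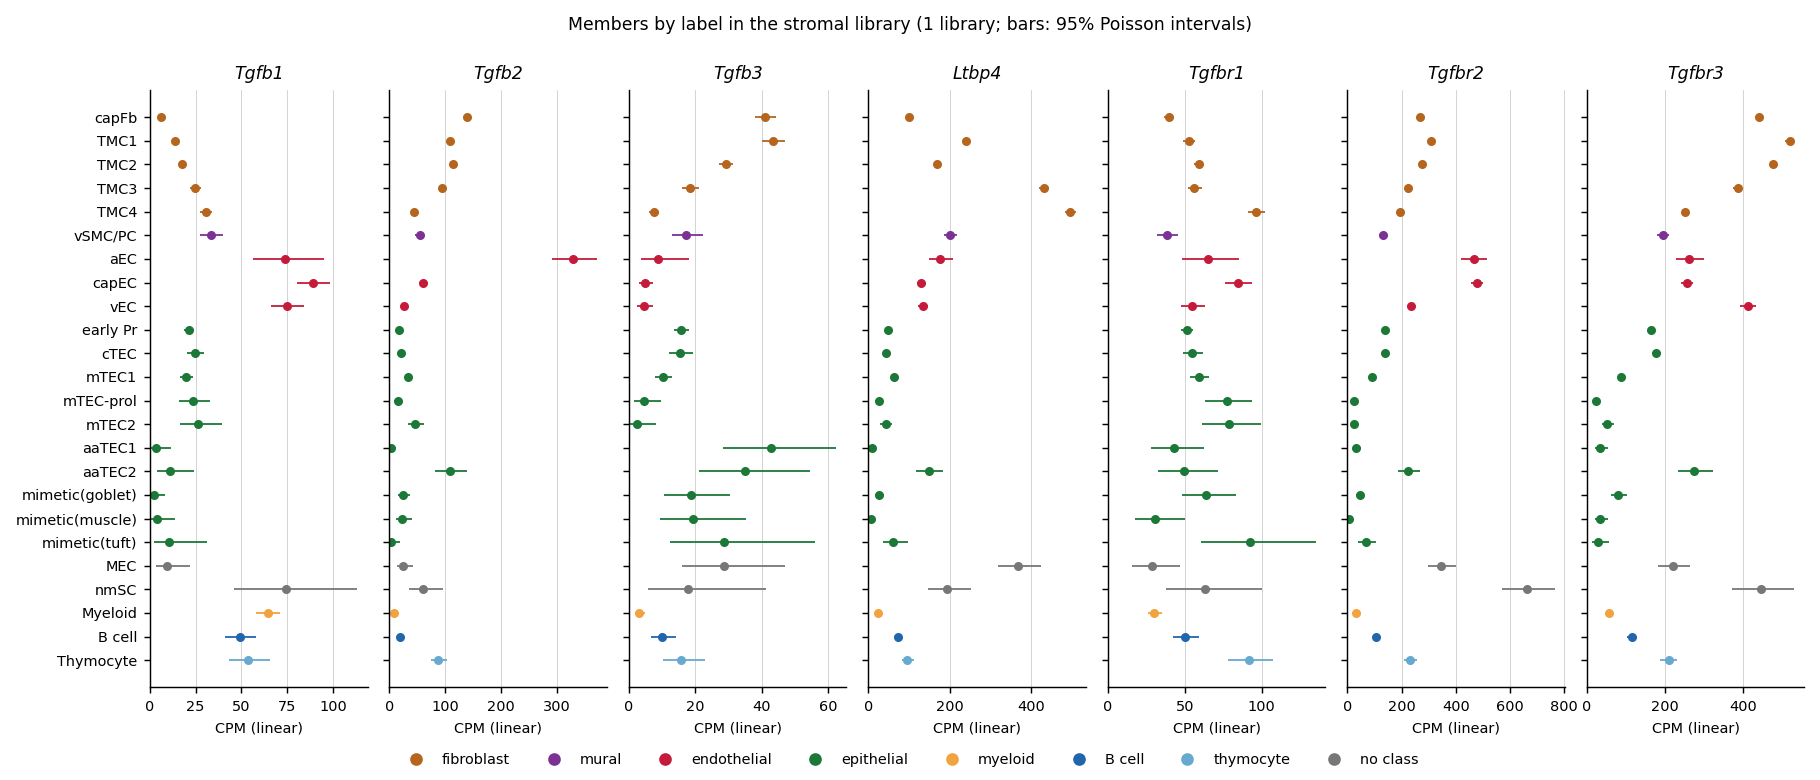
Level of each gene (x axes, CPM, linear and separate for each gene) in the 24 stromal labels (y axis), coloured by cell class. Points are UMIs summed over the cells of a label and bars are 95% Poisson intervals; Tgfb1 peaks in capEC (89.0 CPM), Tgfb2 in aEC (330 CPM), Ltbp4 in TMC4 and TMC3 (497 and 432 CPM), Tgfbr2 in nmSC and capEC, and Tgfbr3 in TMC1 (518 CPM).

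RNA of fibroblast genes was also found outside the fibroblast labels. The 5 fibroblast genes Pdgfra, Col1a1, Col1a2, Dcn and Lum stood in Myeloid cells at a median of 7.87% of their level in the pooled fibroblast labels, in B cells at 23.4% and in cells labelled Thymocyte at 37.3%. In Myeloid cells, where the 5 genes ran from 6.52 to 8.30%, Tgfb2 was at 7.54%, Ltbp4 at 9.27%, Tgfbr2 at 12.0% and Tgfbr3 at 13.3% of the fibroblast level. In early Pr, with fibroblast genes at 11.5%, Tgfbr2 was at 52.9% and Tgfbr3 at 38.0%, several times the fibroblast genes, while Tgfb2 (17.0%) and Ltbp4 (18.9%) were nearer to them. In mTEC-prol the fibroblast genes were at 0.805% and Tgfbr2 at 9.51%. Tgfb2 in the Thymocyte label of the stromal library (88.0 CPM, in 8.52% of 411 cells) was 15.6 CPM (9.06 to 24.9) without the 52 cells in which fibroblast genes exceeded 1% of UMIs. In the same cells Tgfbr3 went from 209 to 82.3 CPM, Tgfbr2 from 231 to 194 CPM and Tgfb1 from 53.6 to 65.0 CPM. Whether such RNA was free RNA, or came from doublets or mislabelled cells, was not tested.

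**Figure D2:**
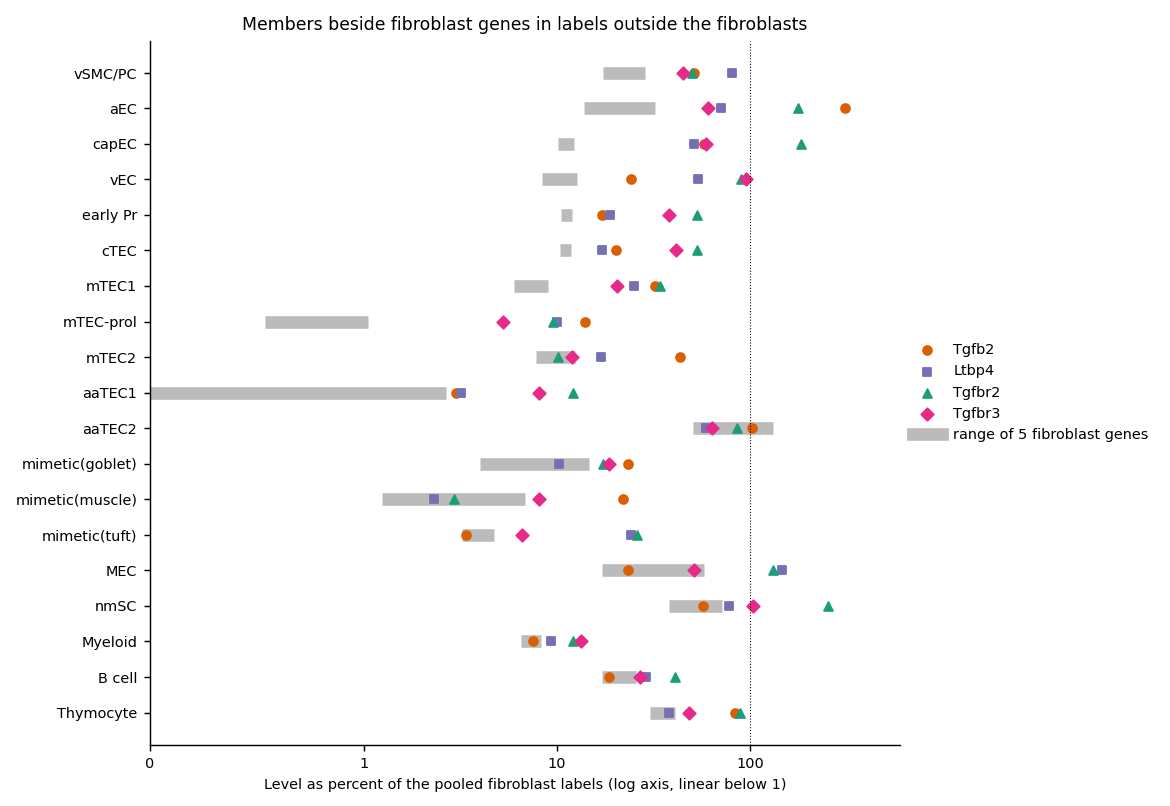
Levels of Tgfb2, Ltbp4, Tgfbr2 and Tgfbr3 (points) and the range of 5 fibroblast genes (grey bars) in the labels outside the fibroblasts, as percent of the pooled fibroblast labels (x axis, logarithmic, linear below 1). Members lie within or near the grey bar in Myeloid cells and aaTEC2, and to the right of it for Tgfbr2 in capEC (183%), early Pr (52.9%) and mTEC-prol (9.51%).

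Of the 7 genes, 0 were at least 3-fold above the next stromal label, beside 9.44% of 13149 genes with at least 20 UMIs in their highest label. For 7 genes a count of 0 is near that share. With labels pooled into 7 classes, 0 of 7 were at least 2-fold above the next class, against 29.3% of 16433 genes. Endothelium led for Tgfb1 at 81.7 CPM (1.27-fold over myeloid cells) and for Tgfbr2 at 377 CPM (1.44-fold over fibroblasts). Fibroblasts led for Tgfb2 at 105 CPM (1.20-fold), Tgfb3 at 29.5 CPM (1.71-fold), Ltbp4 at 250 CPM (1.24-fold) and Tgfbr3 at 431 CPM (1.35-fold). The class next to fibroblasts for Tgfb2 was the Thymocyte label, and without fibroblast-rich cells it was the endothelium (1.79-fold). Fibroblasts were 60.0% of the UMIs of the labelled stromal cells, and held 82.3% of the Tgfb2, 79.1% of the Tgfb3, 83.0% of the Ltbp4 and 79.9% of the Tgfbr3 UMIs, but 39.9% of those of Tgfb1. The sort and the digestion can set these shares.

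The rest of the pathway was read from a list of 43 genes in 6 groups. At the level of labels 0 of 39 measured genes were at least 3-fold above the next, beside 9.44% of all genes. At the level of classes 17 of 42 measured genes passed 2-fold, beside 29.3% of all genes. In the latent complex 3 of 6 genes did. Fibrillin-1 (Fbn1) stood at 6650 CPM in capFb, 2.58-fold above aaTEC2, and Ltbp1 at 664 CPM in vEC, 1.25-fold above capFb, so that Ltbp1 and Ltbp4 had different leading labels. Nrros and Lrrc32, which tether latent Tgfb1 to the cell surface, were highest in the endothelial class like Tgfb1, at 171 and 64.8 CPM, against 0.456 and 20.5 CPM in fibroblasts. Of the activators 5 of 10 passed 2-fold. Thrombospondin-1 (Thbs1) led in TMC4 at 226 CPM (1.75-fold over vSMC/PC) and the protease Mmp14 in capFb at 392 CPM. The integrin chain Itgb8, which with Itgav frees latent ligand, was at 69.8 CPM in the epithelial class and 14.7 CPM in fibroblasts.

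Of the other receptors and co-receptors 2 of 4 passed 2-fold between classes. Endoglin (Eng), an endothelial co-receptor, stood at 721 CPM in vEC, and the type I receptor Acvrl1 at 114 CPM in aEC against 102 CPM in capEC. Among SMADs 1 of 5 passed, and the inhibitory Smad7 led in the Thymocyte label at 110 CPM (1.60-fold over aEC, 1.19 to 2.17). Smad4 was also highest there at 63.5 CPM, within counting error of mimetic(goblet) (1.21-fold, 0.86 to 1.71). Of the inhibitors 1 of 8 passed. The ubiquitin ligase Smurf2 was highest in capFb (223 CPM, 1.32-fold over aEC). The repressor Tgif1 was highest in mTEC1 (50.1 CPM), within counting error of mTEC-prol (1.27-fold, 0.95 to 1.69). Of the known targets 5 of 10 passed. The cell cycle inhibitor Cdkn2b was at 60.6 CPM in mTEC2 on 53 UMIs (2.85-fold over mTEC-prol), and fibronectin (Fn1) at 2599 CPM in capFb.

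Across the 18 stromal labels of at least 50 cells, levels as log2(CPM + 1) of Tgfbr2 and Tgfbr3 ran together (Pearson r = 0.91), as did Ltbp4 with Tgfbr3 (r = 0.78) and with Tgfbr2 (r = 0.75). Tgfb1 ran against Tgfb3 (r = -0.60), and Tgfbr1 was near 0 with Tgfbr2 (r = 0.11) and Tgfbr3 (r = -0.08). The labels share 1 library, so these values are descriptions. The genes most like each member among 11292 were Twf2, Zdhhc18 and Apold1 for Tgfb1 (r = 0.89, 0.87 and 0.85) and Hook3, Fut8 and Zeb1 for Tgfb2 (0.84 each). They were Rab30, Ccdc80 and Arcn1 for Tgfb3 (0.93, 0.91 and 0.91) and Ugcg, Dlc1 and Lix1l for Ltbp4 (0.93, 0.93 and 0.92). For Tgfbr1 they were Map2k4, Gpatch2 and Nvl (0.84, 0.84 and 0.83), for Tgfbr2 Rabep1, Sptbn1 and Gsta6 (0.94, 0.92 and 0.91), and for Tgfbr3 Plscr4, C11h3orf70 and Stard13 (0.96, 0.96 and 0.95). Gsta6 has close relatives in its gene family, among which reads could be split. With labels of at least 20 cells, none of the named genes of Tgfb2, Tgfb3, Tgfbr1 and Tgfbr3 stayed among the 3 most alike.

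Both signalling receptors could be seen in the same cell. At least 1 UMI each of Tgfbr1 and Tgfbr2 was present in 40.4% of TMC4 cells (37.6 to 43.1%), 35.1% of capEC cells, 30.0% of early Pr cells and 7.52% of Myeloid cells. The highest stromal share was 58.6% of the 29 aaTEC2 cells. In the thymocyte library it ran from 5.86% of DP cells (median 3205.5 UMIs) to 77.8% of the 27 Mature CD8-2 cells (median 15655). Labels of like depth differed: 69.7% of the 33 Mature cycling T cells (median 23597) and 39.7% of DN cells (median 23190) held both. DP-P (median 15439) stood at 34.6% and gdT (median 19803.5) at 43.0%. These shares were not thinned, and the part of depth in them was not tested.

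In the thymocyte library the ligand detected in T cell labels was Tgfb1. Tgfb2, Tgfb3 and Ltbp4 gave 4, 4 and 0 UMIs in the 5202 DP cells. In their total of 18914942 UMIs, the floor of 3 UMIs used in ratios is 0.159 CPM, and a count of 0 does not show absence. Of the 31 Tgfb3 UMIs in all labels 20 were in the 170 cells labelled B+myeloid, as were 12 of 32 of Tgfb2 and 12 of 16 of Ltbp4. Tgfb3 there (8.37 CPM) was the only 1 of 5 members with 20 UMIs in its highest label to lead by 3-fold (7.59-fold over gdT), beside 12.4% of 10010 genes. In B+myeloid the 5 fibroblast genes summed to 808 CPM, Dcn to 343 CPM, while that sum was at most 3.16 CPM in every other label.

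Tgfb1 and the receptor Tgfbr2 were both higher in the labels Pre DP-sig and DP-sig than in DP. DP is the usual name of thymocytes that carry both CD4 and CD8, and DN of the earlier cells that carry neither; mature cells carry a single one of them. Tgfb1 stood at 31.7 CPM in DN cells (28.4 to 35.2), 38.8 CPM in DP-P, 27.8 CPM in DP (25.5 to 30.3) and 61.7 CPM in Pre DP-sig. It was 159 CPM in DP-sig (138 to 182, 205 UMIs), 147 CPM in Immature CD4-1 and 185 CPM in AgoSel1 (147 to 230, 82 UMIs), its highest label. The levels were lower again in the 4 mature single-positive labels, from 65.4 CPM in Mature CD8-1 to 84.6 CPM in Mature CD8-2. They were lowest in gdT at 24.2 CPM, within counting error of DP. The intervals of DN, DP-P and DP lay below those of every other label but gdT.

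Tgfbr2 was also higher in DP-sig and in the mature single-positive labels than in DP. It was 48.9 CPM in DN (44.8 to 53.3), 65.8 CPM in DP-P and 111 CPM in DP (106 to 115), and already 309 CPM in Pre DP-sig (278 to 342). DP-sig was highest at 442 CPM (406 to 479, 569 UMIs), followed by Immature CD4-1 at 357 CPM, and the mature single-positive labels stood between 227 and 278 CPM. A Tgfbr2 UMI was present in 73.2% of DP-sig cells (67.8 to 78.2%, median 4010 UMIs) and 26.6% of DP cells (median 3205.5). After thinning to 1000 UMIs the shares were 33.9% and 9.39%. Tgfbr1 did not follow this course: it was 46.0 CPM in DN, 75.7 CPM in DP, 66.0 CPM in DP-sig (52.7 to 81.6) and 77.8 to 169 CPM in the mature labels. Its highest label was B+myeloid at 257 CPM (237 to 278), 1.52-fold above Mature CD8-2. When every cell was given its first cluster instead, the lead was 2.74-fold over Mature SP.

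Tgfbr3 was highest in the label gdT and lower in every other thymocyte label. It stood at 91.5 CPM in gdT (80.5 to 104, 249 UMIs in 128 cells), 2.90-fold (1.54 to 5.45) above Treg, whose 31.6 CPM rested on 10 UMIs. DP-P was at 25.1 CPM, DN at 23.5 CPM and DP at 18.0 CPM on 341 UMIs. In the mature labels it was 0.984 CPM in Mature CD4-1 (1 UMI), 3.99 CPM in Mature CD4-2 (5 UMIs) and 24.2 CPM in Mature CD8-2 (10 UMIs). No UMI was found in the 91 cells of Mature CD8-1, where the floor of 3 UMIs used in ratios is 3.16 CPM. In gdT a UMI of Tgfbr3 was present in 63.3% of cells (median 19803.5 UMIs), and after thinning in 7.03%, against 1.51% of DP cells. The lead of gdT was 2.61-fold over the mean of 20 thinning draws, but in the 1 draw made first it turned to 0.21-fold on 2 UMIs. In CPM the same cells had the lowest Tgfb1 of the library, on 66 UMIs, not separated from DP (DP over gdT 1.15, 0.89 to 1.48). Their Tgfbr2 was low in CPM (82.3). Both are shares of RNA in cells with a median of 19803.5 UMIs, against 3205.5 in DP, and do not give the level per cell.

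**Figure D3:**
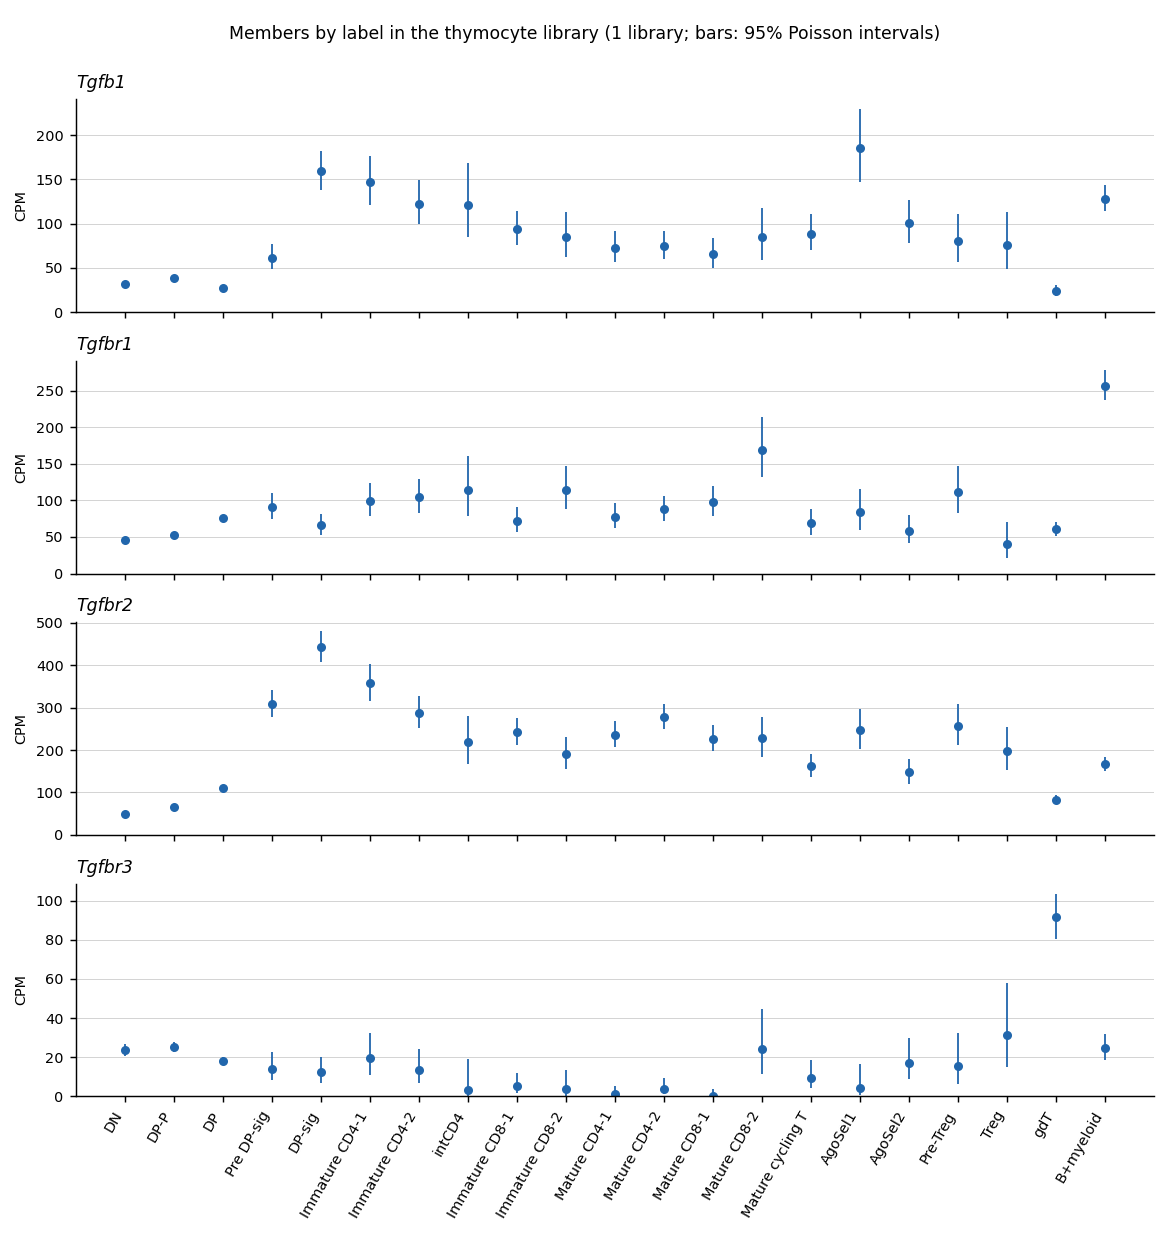
Levels of Tgfb1, Tgfbr1, Tgfbr2 and Tgfbr3 (y axes, CPM, linear and separate for each gene) in the 21 thymocyte labels (x axis). Points are UMIs summed over the cells of a label and bars are 95% Poisson intervals; Tgfb1 and Tgfbr2 are higher at Pre DP-sig and DP-sig (159 and 442 CPM in the latter) than in DP, Tgfbr1 peaks in B+myeloid and Tgfbr3 in gdT (91.5 CPM).

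The 3 steps were then compared with DP as ratios of CPM, beside all genes with at least 20 UMIs in the groups compared. Not every group had to reach that minimum: Tgfbr3 was counted on 16 UMIs in DP-sig, against 341 in DP. From DP to DP-sig, 2 of 4 measured members were at least 2-fold higher, against 12.0% of 12327 genes, and 0 of 4 lower, against 8.60%. Tgfb1 was 5.72-fold higher (4.87 to 6.72) and Tgfbr2 3.99-fold (3.64 to 4.38). Tgfbr1 was at 0.87-fold (0.70 to 1.09) and Tgfbr3 at 0.69-fold (0.42 to 1.14). The median of all genes was 0.09 on the log2 scale. This comparison was added after the levels had been seen.

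From DP to the mature single-positive cells, 2 of 4 members were 2-fold higher, against 11.2% of 12666 genes, and 1 of 4 lower, against 19.0%. Tgfb1 was 2.62-fold higher (2.26 to 3.04) and Tgfbr2 2.23-fold (2.07 to 2.42), both over 2-fold in each of the 4 mature labels alone. Tgfbr1 was at 1.28-fold (1.14 to 1.44), and at 2.24-fold in the 27 cells of Mature CD8-2 alone. Tgfbr3 was at 0.24-fold (0.15 to 0.40, 16 against 341 UMIs). It was at 0.51-fold after thinning, at 0.44-fold by first cluster and at 1.34-fold in Mature CD8-2 alone, so that its lower level did not hold in every setting. The median of all genes was -0.32 on the log2 scale, and leaving mitochondrial, ribosomal and haemoglobin genes out of the totals moved every ratio by 0.26.

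From DP back to the earlier DN cells, 0 of 4 members were 2-fold higher in DN, against 18.2% of 13161 genes, and 1 of 4 lower, against 28.7%. That gene was Tgfbr2, at 0.44-fold (0.40 to 0.49), or 0.50-fold as a mean over cells. Tgfbr1 was at 0.61-fold (0.55 to 0.67), Tgfb1 at 1.14-fold (0.99 to 1.30) and Tgfbr3 at 1.31-fold (1.11 to 1.54). By first cluster Tgfbr3 was at 2.04-fold, and 111 of the 128 gdT cells had DN as their first cluster. The median of all genes was -0.31 on the log2 scale.

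These ratios are shares of a cell's RNA, and the cells differ widely in UMIs. DN cells had a median of 23190 UMIs and DP cells 3205.5. Per cell, DN held 1.36 Tgfbr2 UMIs (1.25 to 1.48) and DP 0.402 (0.385 to 0.420), so that DN was 3.38-fold above DP per cell but 0.44-fold in CPM. Tgfbr1 turned likewise, at 4.64-fold per cell. In DP-sig, with a median of 4010 UMIs, both scales had the same direction: Tgfbr2 was at 1.93 UMIs a cell (4.80-fold over DP) and Tgfb1 at 0.695 (6.87-fold). Mature single-positive cells were 6.10-fold above DP per cell for Tgfbr2 and 7.16-fold for Tgfb1, while Tgfbr3 was at 0.67-fold. UMIs per cell depend on capture as well as on RNA content, and the part of each was not tested.

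**Figure D4:**
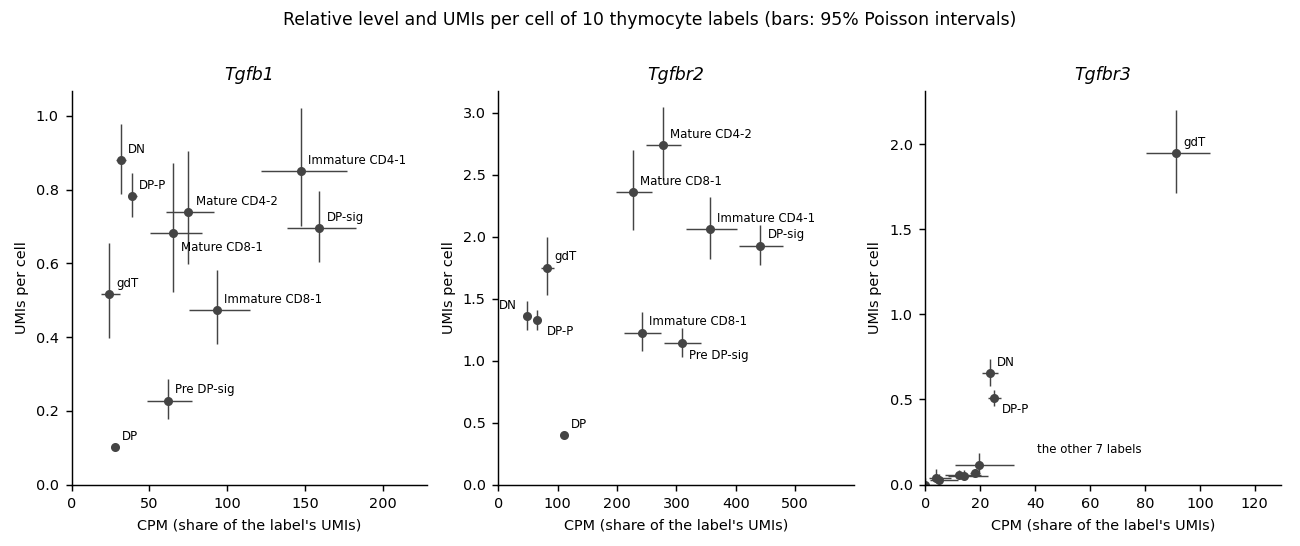
Level in CPM (x axes) and in UMIs per cell (y axes) of Tgfb1, Tgfbr2 and Tgfbr3 in 10 thymocyte labels; bars are 95% Poisson intervals on both scales. DN and DP-P have low CPM but 1.36 and 1.33 Tgfbr2 UMIs a cell, DP is low on both scales (111 CPM, 0.402), and gdT stands apart for Tgfbr3 at 1.95 UMIs a cell.

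Because Tgfb1 and Tgfbr2 were both over 2-fold higher in DP-sig and mature cells than in DP and Tgfbr1 was not, the 250 bases before the start of these genes are shown, from RefSeq on build GRCr8, on the strand of each gene. All 7 members were found in the table. Capitals mark the 2 kinds of motif that matched, a GC box (GGGCGG) and a CCAAT box (CCAAT), on either strand.
Tgfb1, chr1:90324062-90324311, plus strand: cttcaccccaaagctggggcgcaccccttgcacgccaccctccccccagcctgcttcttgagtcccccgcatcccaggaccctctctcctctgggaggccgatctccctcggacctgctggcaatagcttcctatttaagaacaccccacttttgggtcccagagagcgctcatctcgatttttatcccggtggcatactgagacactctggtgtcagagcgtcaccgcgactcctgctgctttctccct
Tgfbr2, chr8:124761470-124761719, minus strand: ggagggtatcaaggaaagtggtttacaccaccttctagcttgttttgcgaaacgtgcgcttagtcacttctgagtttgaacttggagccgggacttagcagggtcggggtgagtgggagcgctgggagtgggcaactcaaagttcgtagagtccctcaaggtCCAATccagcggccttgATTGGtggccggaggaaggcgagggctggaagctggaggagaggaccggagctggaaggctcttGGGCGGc
Tgfbr1, chr5:66449148-66449397, plus strand: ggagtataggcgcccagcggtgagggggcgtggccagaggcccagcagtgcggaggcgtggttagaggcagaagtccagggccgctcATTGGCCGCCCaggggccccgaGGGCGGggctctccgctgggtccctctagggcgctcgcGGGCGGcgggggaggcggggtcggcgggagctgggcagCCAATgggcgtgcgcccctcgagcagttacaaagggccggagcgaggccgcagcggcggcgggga
The window of Tgfb1 held none of the 7 motifs searched, that of Tgfbr2 held 1 GC box and 2 CCAAT boxes, and that of Tgfbr1 held 3 and 2, with a GC box and a CCAAT box adjoining at its reverse-strand match. A GC box was present in 30.5% and a CCAAT box in 34.0% of 33469 rat promoters of this length. The other motifs, searched on both strands, were TATAAA (12.9% of promoters), the AP-1 site TGANTCA (6.34%), the Smad element CAGACA (17.2%), the EGR site GCGNGGGCG (4.29%) and the NFAT core GGAAAA (21.6%), and none of them was in these 3 windows. A GC box and an EGR site overlapped in the window of Tgfbr3, and NFAT cores were found only in that of Tgfb3 among the members. GC content was 60.0% for Tgfb1, 58.0% for Tgfbr2 and 75.6% for Tgfbr1, with a median of 51.2% over all promoters.

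The pathway genes beside the members differed from DP in both directions. In mature single-positive cells 6 of 21 measured genes were at least 2-fold above DP, against 11.2% of all genes, and 5 of 21 below, against 19.0%. Of these, 4 of 6 measured inhibitors were higher and 0 lower. Pmepa1, a target that takes part in negative feedback, stood at 145 CPM against 6.61 CPM (22.0-fold, 18.1 to 26.7), the repressor Skil at 117 against 20.6 CPM (5.68-fold), Tgif1 at 28.4 against 7.03 CPM (4.03-fold) and Ski at 81.5 against 34.6 CPM (2.36-fold). Among the known targets Id3, an inhibitor of E proteins that T cell receptor signals also induce, was 8.92-fold higher, while Id1 (1.10 against 6.13 CPM) and Acta2 (0.826 against 23.1 CPM) were lower. Of the activators, the integrin chain Itgb3 was 8.71-fold higher, at 25.3 CPM, and the protease Furin lower, at 0.35-fold. Nrros, which tethers latent Tgfb1, was at 55.9 CPM in mature cells and 190 CPM in DP (0.30-fold), the reverse of Tgfb1. Ltbp1 was at 0.45-fold on 3 and 35 UMIs, with an interval from 0.14 to 1.45. These ratios are of CPM. In UMIs per cell Nrros was at 0.80-fold, Furin at 0.94-fold and Ltbp1 at 1.22-fold of DP, while Id1 (0.49-fold) and Acta2 (0.098-fold) remained well below it. None of the 4 measured SMADs passed 2-fold.

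In DP-sig 3 of 21 pathway genes were 2-fold higher, against 12.0% of all genes, and 2 lower, against 8.60%, both near these shares. The higher genes were Id3 (14.6-fold), Skil (2.67-fold) and Tgif1 (2.10-fold), and the lower ones Furin (0.47-fold) and Acta2 (0.14-fold). In DN 4 of 21 were higher, against 18.2%, and 6 lower, against 28.7%, again near the shares over all genes. The higher genes were the targets Fn1 (4.72-fold), Id1 (2.09-fold) and Itgae (2.05-fold) and the integrin chain Itgb3 (3.49-fold). The lower ones, in CPM, were Nrros, Itgav, Furin, Smad4, Smurf1 and Smurf2. In UMIs per cell these 6 were above DP, from 2.00-fold for Furin to 3.57-fold for Itgav. Over thymocyte labels 11 of 32 pathway genes led by 3-fold, against 12.4% of all genes, 10 of them in B+myeloid with the fibroblast genes above. The other was Itgb8, at 243 CPM in the 37 Treg cells (77 UMIs), 34.3-fold above Mature cycling T. In the same Treg cells Tgfb1 was at 75.7 CPM (48.5 to 113), Tgfbr2 at 199 CPM and Tgfbr1 at 41.0 CPM, none of them the highest of the library. The pathway list holds genes that other signals also regulate.

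**Figure D5:**
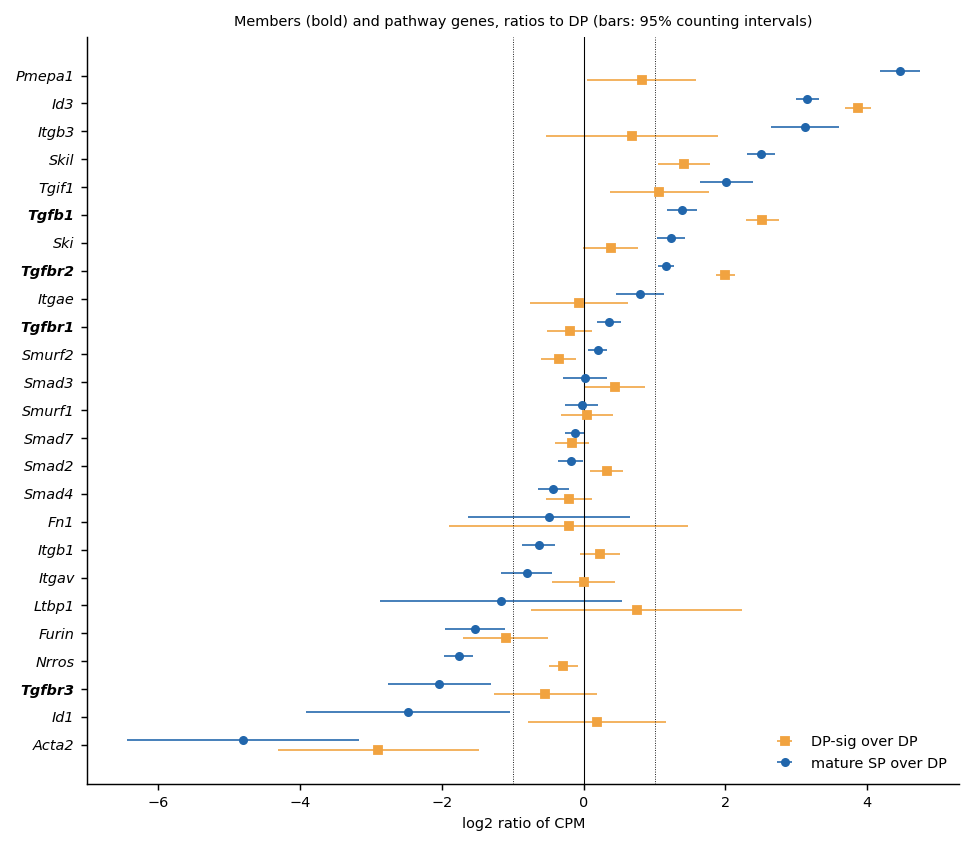
Ratio to DP of the 4 measured members (bold) and 21 pathway genes, as log2 of the CPM ratio (x axis), in DP-sig (squares) and mature single-positive cells (circles); bars are 95% counting intervals and dotted lines 2-fold. Tgfb1 and Tgfbr2 lie to the right in both, more so in DP-sig, and Pmepa1 is highest in mature cells (22.0-fold).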

How the data were processed

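The 2 single-cell libraries, from stromal cells and from thymocytes, were read as deposited UMI count matrices, made by the authors, per the file headers, in Cell Ranger 8.0.0. The submitters' processing notes also name Seurat 5.3.0 and the genome build mRatBN7.2, with no role given. The cell labels are the authors' deposited annotation: the projected label where present, otherwise the first cluster. The annotation also holds the percent of mitochondrial UMIs of each cell, as the authors deposited it, which set no filter here. The 2 tables of the Stereo-seq section, which give positions and labels, were not used here.

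Counts were summed per label and divided by all UMIs of the label (CPM). Exact Poisson intervals were used for levels, log-normal intervals from the counts for ratios and exact Clopper-Pearson intervals for shares, at 95%. A count under 3 UMIs was set to 3 in a ratio. Fibroblast labels were capFb and TMC1 to TMC4. Other classes followed markers, except that aaTEC2 was kept in the epithelial class against its markers. Cells were thinned to 1000 UMIs without replacement, leaving out 83 stromal and 51 thymocyte cells, and thinned values are means of 20 draws. The levels of 5 fibroblast genes were read in every label, and no doublet caller was run. Alternatives were other cell filters, totals, weights, folds and minimum counts; added after seeing the data were the removal of cells with over 1% fibroblast gene UMIs, the removal of 3 doubtful labels, DP-sig over DP, and 20 thinning draws in place of the 1 first used, whose values had been seen. Named were the 7 members, in each pathway group the 2 genes with the largest lead among stromal labels, genes past 2-fold in mature cells over DP, and 3 alike genes a member. Other pathway genes in the text were named after their values were seen. The members and lists were chosen with earlier results of these data known. Methods were checked on simulated counts. Promoters were from RefSeq, GRCr8. Python 3.11.15 was used with pandas 2.3.3, NumPy 2.4.6, matplotlib 3.10.9 and SciPy 1.17.1.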

Additional observations from a re-analysis of the deposited data

Results flagged for a closer look

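Signal of all 7 genes was present in data that no comparison above uses, the 2934 stromal barcodes without a label (8663291 UMIs, median 1219.5). Tgfb1 stood there at 23.5 CPM, against 26.1 CPM in labelled cells, and Tgfbr1 at 53.7 CPM against 57.5 CPM. The other members were lower than in labelled cells: Tgfb2 at 33.2 CPM against 76.9 CPM, Tgfb3 at 8.20 CPM against 22.4 CPM, Ltbp4 at 78.7 CPM against 181 CPM, Tgfbr2 at 107 CPM against 220 CPM and Tgfbr3 at 180.0 CPM against 324 CPM. All 7 were above what a count of 0 would allow.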

How the results depend on the processing

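No paired analysis was possible because the design holds 1 library a cell preparation. Of 257 alternative ratios 199 stayed within the counting interval of the main value, 51 lay outside it without turning a called ratio and 7 turned. The turned values were the Tgfb1 lead of capEC (0.91 as a mean over cells, 0.94 thinned, 0.75 in a single thinning draw, 0.61 without fibroblast-rich cells), the Tgfbr3 lead of gdT (0.21 in a single thinning draw that left it 2 UMIs), the Tgfb3 lead of B+myeloid (0.79 thinned, on under 3 UMIs in each label, by the floor) and Tgfbr3 in Mature CD8-2 over DP (1.34).

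As means over cells, leads or ratios were 2.79 for Tgfb2 in aEC, 1.59 for Ltbp4 in fibroblasts, 1.59 for Tgfbr2 in endothelium, 1.52 for Tgfbr3 in fibroblasts, 0.50 for Tgfbr2 in DN and 1.13 for Tgfbr1 in mature cells. Thinned, they were 2.74 (Tgfb2, aEC), 1.58 (Ltbp4, fibroblasts), 1.62 (Tgfbr2, endothelium), 1.52 (Tgfbr3, fibroblasts), 0.98 (Tgfb1, DN), 0.49 (Tgfbr2, DN), 1.11 (Tgfbr1, mature) and 0.51 (Tgfbr3, mature). These are means of 20 draws, which replaced 1 draw after its values had been seen. That 1 draw gave label leads of 1.73 (Tgfb2, aEC), 1.23 (Ltbp4, TMC4), 0.68 (Tgfbr1, TMC4), 1.67 (Tgfbr2, nmSC), 1.02 (Tgfbr3, TMC1) and 1.11 (Tgfbr1, B+myeloid). Its class leads were 1.02 (Tgfb1, endothelium), 1.49 (Tgfb2), 1.43 (Ltbp4) and 1.51 (Tgfbr3) in fibroblasts, and 1.60 (Tgfbr2, endothelium). Over DP it gave 0.82, 0.91, 0.52 and 1.03 in DN for Tgfb1, Tgfbr1, Tgfbr2 and Tgfbr3, 4.80, 4.64 and 1.17 in DP-sig for Tgfb1, Tgfbr2 and Tgfbr3, and 2.22 and 0.47 in mature cells for Tgfb1 and Tgfbr3. With totals without mitochondrial, ribosomal and haemoglobin genes, DN over DP was 0.68 for Tgfbr1 and 0.49 for Tgfbr2, and mature over DP 3.15 for Tgfb1, 1.54 for Tgfbr1 and 2.68 for Tgfbr2. By first cluster, values were 2.74 (Tgfbr1, B+myeloid), 2.04 (Tgfbr3, DN), 3.17 (Tgfb1, mature) and 0.44 (Tgfbr3, mature). Without fibroblast-rich cells they were 2.39 (Tgfbr2, nmSC) and 1.79 (Tgfb2, fibroblasts).

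For single mature labels, Tgfb1 was at 3.04 in Mature CD8-2, Tgfbr1 at 1.03 in Mature CD4-1 and 2.24 in Mature CD8-2, and Tgfbr2 at 2.51 in Mature CD4-2, 2.05 in Mature CD8-1 and 2.05 in Mature CD8-2. The cause of these shifts was not tested.

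Counts over all genes followed the threshold. Stromal label leads numbered 1241, and 2275 at 2-fold or 633 with at least 100 UMIs. Class leads numbered 4820, and 2979 at 3-fold. Thymocyte label leads numbered 1246, and 615 with at least 100 UMIs. At 3-fold, DN over DP gave 1432 higher and 1977 lower in place of 2394 and 3782, DP-sig 509 and 458 in place of 1485 and 1060, and mature cells 811 and 1157 in place of 1417 and 2409. With at least 100 UMIs the higher genes were 637 in DP-sig and 839 in mature cells. All 12 shares of cells with a UMI were lower after thinning.

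The number of cells limits the labels of under 50 cells, where a lead can rest on fewer than 30 UMIs, and levels near 1 UMI say nothing of absence. Each library is 1 preparation, so differences between animals were not measured.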
